A study of Homo sapiens with 60 samples.

Results

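Haptoglobin (HP), haemopexin (HPX) and 8 further genes for plasma proteins of the acute phase response were followed in HepG2 cells exposed to herbal water extracts. The genes were chosen by symbol: HP, HPX, SERPINA1, SERPINA3, ORM1, ORM2, SAA1, SAA4, LBP and CP. They are 10 of the 60675 genes in the count table, and each symbol matched 1 gene identifier. HepG2 is a human hepatocellular carcinoma line that keeps much of the secretory programme of a hepatocyte.

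RNA was sequenced from 60 libraries of cells exposed for 24 h. Of 7 extracts, each given at 20, 100 and 500 µg/mL, 4 were of single herbs (Citri Unshius Pericarpium with Cimicifugae Rhizoma, and Bupleuri Radix with Aconiti Lateralis Radix Preparata) and 3 carry the names of formulas (Yijung-tang, Banhasasim-tang and Bojungikgi-tang). For 6 extracts there were 3 libraries per dose, and for Bojungikgi-tang 1 library per dose. The reference was 3 libraries labelled vehicle with 0.1% DMSO, while the series description names another DMSO content and a wortmannin control, which were not analysed here. The numbers in the library titles put each of these herb pairs, and Yijung-tang with Banhasasim-tang, in a set. The vehicle libraries form a set of their own, so that any difference between extract and vehicle cannot be told apart from a difference between sets; 500 and 20 µg/mL of 1 extract share a set. Nothing in the labels tells if the replicates of a group were grown apart, and p-values here cover only library spread, which may be technical.

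During an acute phase response, interleukin-6 and interleukin-1 act on hepatocytes through JAK, STAT3, NF-kB and C/EBP factors, and the liver secretes more of the positive acute phase proteins and less of others such as albumin and transthyretin. Haptoglobin captures free haemoglobin and haemopexin captures free haem, so that both limit oxidative damage after red cells break. SERPINA1 (alpha-1-antitrypsin) and SERPINA3 (alpha-1-antichymotrypsin) inhibit serine proteases, ORM1 and ORM2 are the orosomucoid plasma carriers, SAA1 and SAA4 are serum amyloid A apolipoproteins, LBP carries bacterial lipopolysaccharide, and CP (ceruloplasmin) is a copper-bearing ferroxidase.

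Libraries held 17598646 to 30451640 counts, and the vehicle libraries 21014795 to 22891342. Hepatocyte markers summed to 36350 to 37230 CPM, counts scaled to a common library size, in vehicle libraries. They summed to 32070 to 32910 CPM at 500 µg/mL and 37090 to 37470 CPM at 20 µg/mL of Cimicifugae Rhizoma. The sums were 31010 to 32230 and 34130 to 35830 CPM for Aconiti Lateralis Radix Preparata, and 34020 to 35800 and 36380 to 37590 CPM for Citri Unshius Pericarpium. With Bupleuri Radix, Yijung-tang and Banhasasim-tang the doses overlapped. Vehicle replicate 2 stood apart in holding 152 counts (6.94 CPM) of PTPRC, a pan-leukocyte gene with 0 counts in the other vehicle libraries and at most 0.0457 CPM in the other 57 libraries. Calls against vehicle are therefore also given without it. The 6 macrophage and leukocyte markers summed to 1037 to 3048 CPM at 500 µg/mL and 1318 to 1347 CPM in vehicle, most of it LYZ, which HepG2 cells carried at 1292 ± 20.6 CPM (SD, n = 3) in vehicle. In bulk RNA, fewer cells that express a gene and less RNA of it per cell cannot be told apart.

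Per unit of transcript length, in TPM-like units scaled to the same total in every library, SERPINA1 was the most abundant member in vehicle cells at 3467 ± 81.6 (SD, n = 3). ORM1 (653 ± 17.6), ORM2 (538 ± 3.04), HP (299.7 ± 11.6) and SAA4 (242 ± 10.5) followed on this scale, each apart from its neighbour by more than the SDs. SERPINA3 (37.5 ± 1.07) and CP (35.2 ± 2.88) did not differ beyond their spread, and HPX was the lowest well-measured member at 19.3 ± 1.22. The level of SERPINA3 leaves out reads assigned to the overlapping ENSG00000273259, which held more counts, so the place of SERPINA3 beside CP is uncertain. SAA1 and LBP were close to 0, and the plot of levels per transcript length shows this order.

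**Figure D1:**
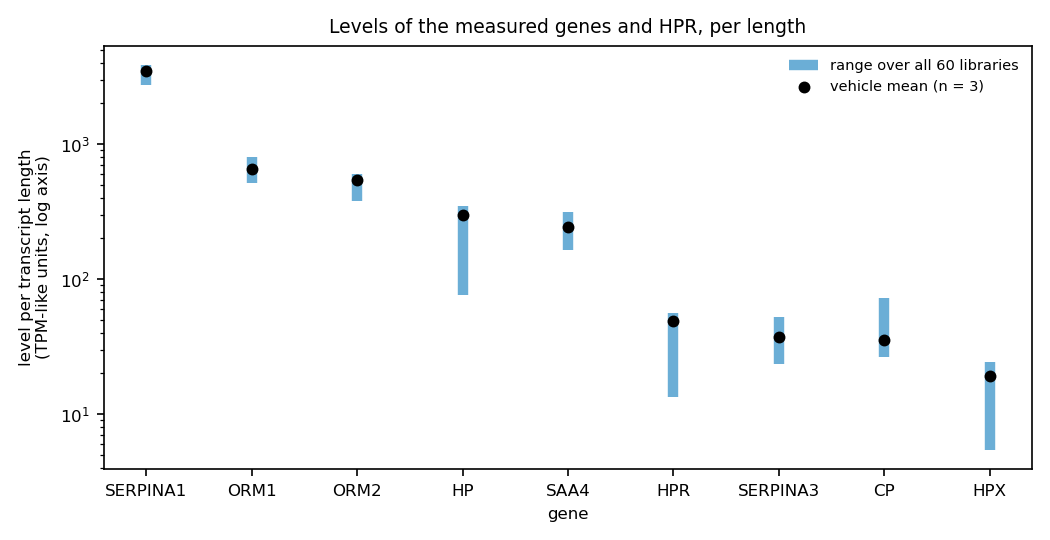
Level of the 8 well-measured members and of HPR per transcript length (TPM-like units, log axis), with a point for the vehicle mean (n = 3) and a bar for the range over all 60 libraries. SERPINA1 lies highest and HPX lowest, SERPINA3 and CP overlap, and HP reaches 76.4 at the low end. The level of SERPINA3 leaves out reads assigned to the overlapping ENSG00000273259.

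At 500 against 20 µg/mL, HP and HPX fell in most extracts and CP rose in 4 of the 6. Of the 8 members with enough counts to be tested, 3 were called for Citri Unshius Pericarpium, 5 for Cimicifugae Rhizoma, 5 for Bupleuri Radix, 5 for Aconiti Lateralis Radix Preparata, 2 for Yijung-tang and 4 for Banhasasim-tang. A call is an adjusted p under 0.05 in edgeR's quasi-likelihood test, Benjamini-Hochberg adjusted over all 16093 genes tested. Of all genes tested, 1.58% were called for Citri Unshius Pericarpium, 39% for Cimicifugae Rhizoma, 18.5% for Bupleuri Radix, 37.1% for Aconiti Lateralis Radix Preparata, 3.73% for Yijung-tang and 14.9% for Banhasasim-tang. With shares that high, a call with Cimicifugae Rhizoma or Aconiti Lateralis Radix Preparata does not by itself set a member apart from genes at large. The median log2 fold change of the 8 members lay between -0.14 and 0.12 in the 6 extracts, against 0.00 for all genes in each, so the members did not move one way as a list.

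HP (chromosome 16:72054592-72061055, plus strand, GRCh38) showed the largest fall of any member, and the fall was graded by extract. With Aconiti Lateralis Radix Preparata, HP measured 62.6, 63.9 and 59.97 CPM at 500 µg/mL, against 178, 183 and 176 CPM at 20 µg/mL. With Cimicifugae Rhizoma it measured 87.8, 85.9 and 87.9 CPM at 500 µg/mL, against 187.5, 199 and 184 CPM at 20 µg/mL. The 3 libraries of each high dose sat far below all 3 of the low dose. The log2 fold changes were -1.53 ± 0.0467 (SE, n = 3 per group; adjusted p = 5.06e-33) and -1.13 ± 0.046 (adjusted p = 2.09e-27), which leave 0.346 and 0.458 of the low-dose level.

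The other extracts showed smaller differences in HP. With Banhasasim-tang it measured 123.1, 129.5 and 130.2 CPM at 500 µg/mL, against 186, 213 and 196.5 CPM at 20 µg/mL (log2 fold change -0.63 ± 0.0442, adjusted p = 9.16e-17). With Bupleuri Radix it measured 143.5, 142.5 and 152 CPM at 500 µg/mL, against 188, 189.6 and 191 CPM at 20 µg/mL (log2 fold change -0.38 ± 0.0441, adjusted p = 9.27e-10). The groups of both extracts were apart in every library. Citri Unshius Pericarpium gave 175, 164 and 161 CPM at 500 µg/mL, against 187, 189.6 and 185 CPM at 20 µg/mL, a log2 fold change of -0.17 ± 0.0443 with an adjusted p of 0.0338. That HP call was lost when 20 µg/mL replicate 1 (adjusted p = 0.104), replicate 2 (0.164) or replicate 3 (0.0772), or 500 µg/mL replicate 2 (0.179) or replicate 3 (0.204), was left out. Yijung-tang gave 173.0, 176.9 and 169 CPM at 500 µg/mL and 177.1, 193 and 195 CPM at 20 µg/mL. The Yijung-tang groups did not overlap but HP missed the threshold (log2 fold change -0.13 ± 0.0438, adjusted p = 0.0988), and passed it without 20 µg/mL replicate 1 (-0.17, adjusted p = 0.0446).

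HP lies beside HPR, a near copy, and reads could have been split between them, so values of either gene alone are uncertain. HP held 87.2% to 89.4% of their summed counts as taken per group. HPR fell with HP, by 1.34 on the log2 scale for Aconiti Lateralis Radix Preparata and by 0.95 for Cimicifugae Rhizoma, and the 2 genes taken as 1 gave -1.50 and -1.10. TXNL4B, on the opposite strand of the same locus, changed much less, with log2 fold changes of -0.29 (adjusted p = 0.000194) and -0.25 (adjusted p = 0.00212) for the same extracts. Whether the counting used strand is not given in the sources used here.

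**Figure D2:**
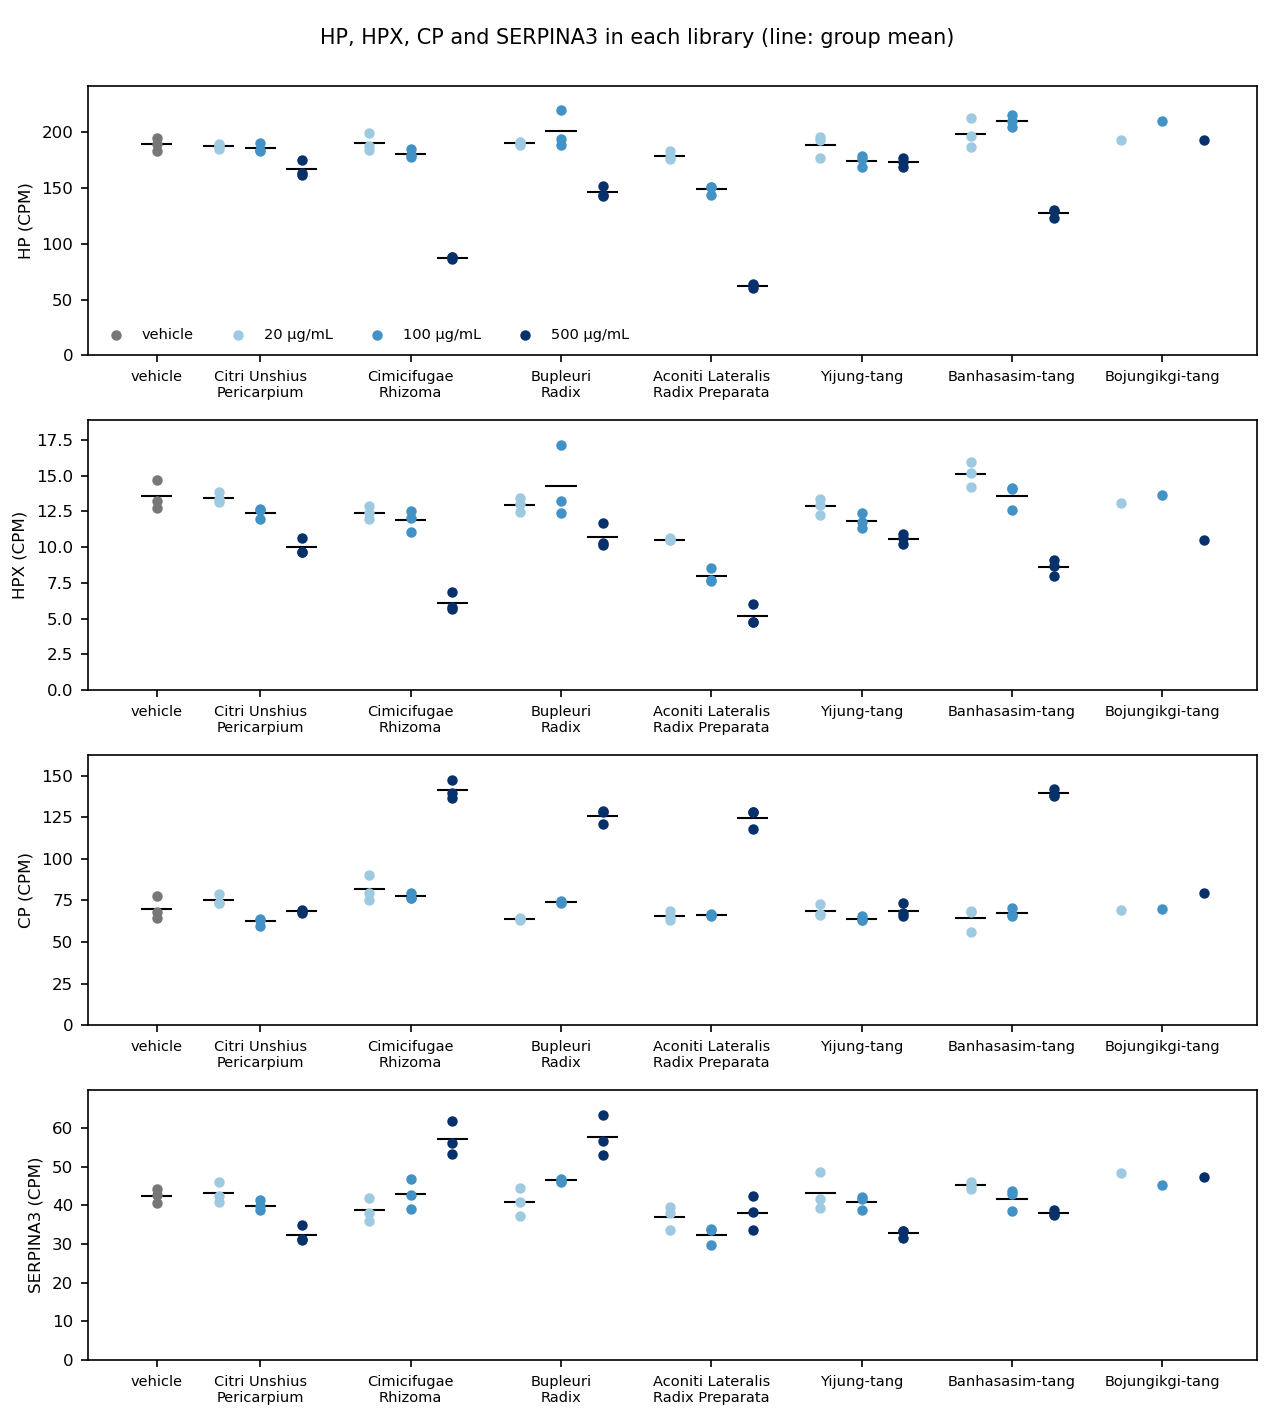
CPM of HP, HPX, CP and SERPINA3, 1 point per library, by extract and dose, with vehicle at the left and a line at each group mean. HP and HPX are lowest at 500 µg/mL of Aconiti Lateralis Radix Preparata and Cimicifugae Rhizoma, and CP stands high at 500 µg/mL of 4 extracts.

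HPX (chromosome 11:6431049-6442617, minus strand) fell in all 6 extracts. With Aconiti Lateralis Radix Preparata it measured 6.05, 4.74 and 4.76 CPM at 500 µg/mL, against 10.5, 10.6 and 10.5 CPM at 20 µg/mL, a log2 fold change of -1.02 ± 0.0959 (adjusted p = 3.89e-13). With Cimicifugae Rhizoma it measured 6.89, 5.79 and 5.69 CPM at 500 µg/mL, against 11.9, 12.4 and 12.9 CPM at 20 µg/mL, again a log2 fold change of -1.02 (SE 0.095, adjusted p = 2.82e-13). Banhasasim-tang gave 8.01, 9.09 and 8.67 CPM at 500 µg/mL and 14.2, 15.97 and 15.2 CPM at 20 µg/mL (log2 fold change -0.81 ± 0.0823). In all 6 extracts no high-dose library reached a low-dose one. The falls were -0.43 ± 0.0859 for Citri Unshius Pericarpium (adjusted p = 0.00141), -0.28 ± 0.082 for Yijung-tang (adjusted p = 0.0354) and -0.27 ± 0.0823 for Bupleuri Radix (adjusted p = 0.0121). The HPX call for Bupleuri Radix was lost without 500 µg/mL replicate 1 (adjusted p = 0.0717) or replicate 2 (0.0591) or 20 µg/mL replicate 3 (0.0519). The HPX call for Yijung-tang was lost without any one of the 500 µg/mL replicates or of 20 µg/mL replicates 1 and 2, with adjusted p of 0.0731 to 0.143.

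The 250 bases before the HPX start are shown because they carry, in capitals, an exact TTCCCAG at -75 to -69, the reverse complement of the CTGGGAA core of the acute phase response element known from liver genes. The other capitals mark TTGCTGAA at -203 to -196, which matches TTNNGNAA on the reverse strand. TTNNGNAA is a loose form of the site bound by C/EBP factors. The window is chr11:6440988-6441237, minus strand, from RefSeq, GRCh38.p14.
HPX: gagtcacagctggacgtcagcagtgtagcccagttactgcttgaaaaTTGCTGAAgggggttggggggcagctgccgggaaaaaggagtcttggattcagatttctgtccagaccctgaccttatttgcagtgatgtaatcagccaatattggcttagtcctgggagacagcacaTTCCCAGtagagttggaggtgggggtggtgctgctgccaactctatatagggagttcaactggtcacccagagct
CTGGGAA was found on either strand in 9.15% of all 35116 windows of this length, and TTNNGNAA in 33.2%. A match is a description of the letters only.

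Genes for haem handling moved in both directions at 500 against 20 µg/mL. Of these, CD163 and LRP1 were chosen after their values were seen. CD163, the macrophage receptor for haptoglobin with haemoglobin, was close to 0 in all groups, and LRP1, the receptor for haemopexin with haem, fell with Cimicifugae Rhizoma (435 ± 10.4 CPM at 500 µg/mL, 584 ± 11.6 CPM at 20 µg/mL; adjusted p = 0.000557). HMOX1, which degrades haem, rose with Yijung-tang, at 101 ± 8.02 CPM at 500 µg/mL and 60.1 ± 0.666 CPM at 20 µg/mL (log2 fold change 0.74, adjusted p = 3.61e-13). HMOX1 also rose with Citri Unshius Pericarpium (0.34) and Aconiti Lateralis Radix Preparata (0.19), and fell with Banhasasim-tang (-0.25), Cimicifugae Rhizoma (-0.25) and Bupleuri Radix (-0.21). Of the 15 tested genes for haem and haemoglobin handling, 9 rose and 4 fell with Cimicifugae Rhizoma, 9 and 1 with Aconiti Lateralis Radix Preparata, 4 and 2 with Bupleuri Radix, 2 and 2 with Banhasasim-tang, 5 and 0 with Yijung-tang and 1 and 0 with Citri Unshius Pericarpium. The shares of all genes called in these comparisons were 39%, 37.1%, 18.5%, 14.9%, 3.73% and 1.58%. FTH1, the heavy chain of the iron store ferritin, rose with Cimicifugae Rhizoma and Aconiti Lateralis Radix Preparata (0.31 and 0.53), as did FECH, which inserts iron into haem (0.32 and 0.41), and ALAS1, the first enzyme of haem synthesis (0.28 and 0.42).

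CP (chromosome 3:149162410-149222055, minus strand) went the other way. Banhasasim-tang gave 138.2, 138.1 and 142.0 CPM at 500 µg/mL, against 68.3, 56.1 and 68.5 CPM at 20 µg/mL. Bupleuri Radix gave 128.5, 128.7 and 121 CPM at 500 µg/mL, against 63.4, 64.3 and 64.1 CPM at 20 µg/mL. Every high-dose library of both was far above the low-dose ones, with log2 fold changes of 1.12 ± 0.0561 (adjusted p = 2.22e-22) and 0.98 ± 0.0564 (adjusted p = 3.5e-20). Aconiti Lateralis Radix Preparata gave 128.3, 128.1 and 118 CPM at 500 µg/mL, against 68.4, 65.1 and 63.3 CPM at 20 µg/mL (log2 fold change 0.92 ± 0.0566, adjusted p = 5.08e-20). Cimicifugae Rhizoma gave 139.9, 136.5 and 148 CPM at 500 µg/mL, against 79.5, 90.4 and 75.5 CPM at 20 µg/mL (log2 fold change 0.79 ± 0.0562, adjusted p = 2.3e-17). The level of CP with Citri Unshius Pericarpium (68.5 CPM at 500 µg/mL) and with Yijung-tang (68.9 CPM at 500 µg/mL) was near that of vehicle, 70.02 ± 6.62 CPM (SD, n = 3), and CP missed the threshold in both (log2 fold changes -0.14, adjusted p = 0.332, and 0.01, adjusted p = 0.981). HPS3, which overlaps CP on the opposite strand, changed by 0.01 to 0.09 on the log2 scale and was called in no extract.

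The plot of group means of HP beside HPX and CP shows that the 4 extracts with high CP are those with the lowest HP at 500 µg/mL, but the order differs within them. HP was lowest with Aconiti Lateralis Radix Preparata, whereas CP was highest with Cimicifugae Rhizoma and Banhasasim-tang. Over the mean log2 CPM of the 19 replicated groups, Pearson r was 0.947 for HP with HPX and -0.775 for HP with CP. These groups share sets and doses, and for CP they fall into separate clusters. Both r values include the same 500 µg/mL groups with low HP, and neither was tested.

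**Figure D3:**
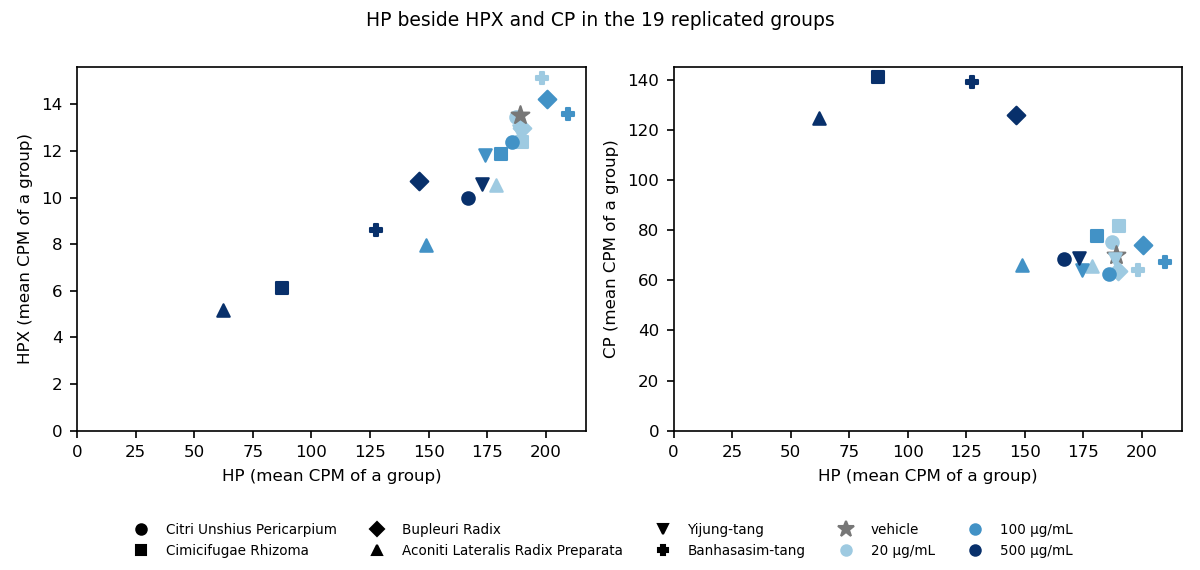
Mean CPM of HP on the x axis and of HPX (left) or CP (right) on the y axis, 1 point for each of the 19 replicated groups, with shape for the extract and colour for the dose. HP and HPX are low together at 500 µg/mL of Aconiti Lateralis Radix Preparata and Cimicifugae Rhizoma, and the 4 groups with high CP, between 124.8 and 141.3 CPM, lie apart from the other groups.

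Of the protease inhibitors, SERPINA1 (chromosome 14:94376747-94390693, minus strand) was the steadiest. Its level ran from 4868 to 6269 CPM over all libraries, and its log2 fold changes of 500 against 20 µg/mL, -0.10 to 0.11, passed the threshold in no extract. SERPINA3 (chromosome 14:94612377-94624055, plus strand) changed in opposite directions. Cimicifugae Rhizoma gave 56.2, 61.7 and 53.2 CPM at 500 µg/mL, against 38.1, 42.0 and 35.9 CPM at 20 µg/mL (log2 fold change 0.56 ± 0.078, adjusted p = 4.92e-08). Bupleuri Radix gave 56.6, 53.1 and 63.4 CPM at 500 µg/mL, against 44.5, 40.9 and 37.3 CPM at 20 µg/mL (log2 fold change 0.49 ± 0.0754, adjusted p = 1.13e-06). SERPINA3 was higher in every high-dose library of these extracts than in any low-dose one.

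SERPINA3 fell with Citri Unshius Pericarpium, at 34.8, 31.2 and 30.9 CPM at 500 µg/mL, against 46.1, 42.5 and 40.8 CPM at 20 µg/mL (log2 fold change -0.42 ± 0.0808, adjusted p = 0.00105). It fell with Yijung-tang, at 33.4, 33.4 and 31.6 CPM at 500 µg/mL, against 39.3, 48.6 and 41.7 CPM at 20 µg/mL (log2 fold change -0.40 ± 0.0781, adjusted p = 0.000476). The fall with Banhasasim-tang, -0.24 ± 0.0766 (adjusted p = 0.0233), was lost without 500 µg/mL replicate 1 (adjusted p = 0.0784) or replicate 2 (0.0601), or 20 µg/mL replicate 2 (0.0735) or replicate 3 (0.0608). With Aconiti Lateralis Radix Preparata the groups overlapped, at 38.2, 42.5 and 33.6 CPM at 500 µg/mL and 33.5, 39.6 and 37.9 CPM at 20 µg/mL. Reads of SERPINA3 cannot be told apart with certainty from those of ENSG00000273259, an overlapping gene on the same strand whose log2 fold changes in the 6 extracts were -0.42, 0.47, 0.63, -0.15, -0.46 and -0.22, with Citri Unshius Pericarpium, Cimicifugae Rhizoma, Bupleuri Radix, Aconiti Lateralis Radix Preparata, Yijung-tang and Banhasasim-tang in that order. ENSG00000273259 held more counts than SERPINA3, with group means of 76.8 to 147 CPM at 500 µg/mL and 95.5 to 111 CPM at 20 µg/mL. SERPINA3 summed with it kept each called direction, with 0.49 for Cimicifugae Rhizoma and 0.59 for Bupleuri Radix.

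The window before the SERPINA3 start is shown for the other core of the same element, TTTCCAG at -101 to -95, the reverse complement of CTGGAAA, which 6.24% of windows hold. The second run of capitals, TTTCCCAA at -63 to -56, is a TTNNGNAA match on the reverse strand. It is chr14:94612141-94612390, plus strand, of the same RefSeq build.
SERPINA3: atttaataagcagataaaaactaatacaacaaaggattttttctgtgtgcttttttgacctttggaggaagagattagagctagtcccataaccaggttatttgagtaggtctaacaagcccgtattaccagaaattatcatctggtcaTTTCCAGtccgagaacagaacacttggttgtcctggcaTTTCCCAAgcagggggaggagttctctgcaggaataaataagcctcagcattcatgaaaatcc
The full STAT palindrome TTCNNNGAA was in none of the windows found, those of HPX, SERPINA1, SERPINA3, ORM1 and SAA4, against 6.57% of all windows. A TTNNGNAA match was in 5 of 5 of these genes, against 33.2% of all windows. The 5 genes have 6 windows, and a SERPINA1 window had no TTNNGNAA match, so genes and windows are unlike units. HP, ORM2, SAA1, LBP and CP had no entry in the promoter table.

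The orosomucoids ORM1 (chromosome 9:114323056-114326475) and ORM2 (chromosome 9:114329869-114333252) lie next to each other on the plus strand and are near copies, so their split is uncertain. ORM1 held 56.1% to 59.5% of their sum as taken per group. With Aconiti Lateralis Radix Preparata ORM2 fell, at 161, 151 and 153 CPM at 500 µg/mL, against 167, 187 and 179 CPM at 20 µg/mL (log2 fold change -0.20 ± 0.0518, adjusted p = 0.00125), and no library overlapped. ORM1 fell by 0.18 on the log2 scale with the same extract (adjusted p = 0.0164), a call lost without 500 µg/mL replicate 1 (adjusted p = 0.0874) or 20 µg/mL replicate 2 (0.0595) or replicate 3 (0.0666). With Bupleuri Radix ORM1 gave 260.1, 255 and 285 CPM at 500 µg/mL and 211, 239.8 and 249.5 CPM at 20 µg/mL. That rise of 0.19 ± 0.0594 (adjusted p = 0.0149) was lost without 20 µg/mL replicate 1 (adjusted p = 0.215) or 500 µg/mL replicate 3 (0.155). No other extract moved either gene past the threshold.

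Among the serum amyloid A genes, SAA4 (chromosome 11:18231349-18236893, minus strand), the constitutive form, was called at 500 against 20 µg/mL for Cimicifugae Rhizoma, and for no other of the 6 extracts. It measured 106, 97.2 and 93.8 CPM at 500 µg/mL, against 70.6, 78.95 and 71.6 CPM at 20 µg/mL (log2 fold change 0.42 ± 0.0723, adjusted p = 3.9e-06), with no overlap. SAA1 (chromosome 11:18266174-18269977, plus strand), the inducible form and a near copy of SAA2, had 8 counts in all, in 6 of 60 libraries. LBP (chromosome 20:38346356-38377023, plus strand) had 52 counts in all, in 30 of 60 libraries and at most 4 in any. Neither had enough counts to be tested; 3 counts, the limit that a count of 0 allows, are 0.0985 to 0.171 CPM by library, for counting error only.

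**Figure D4:**
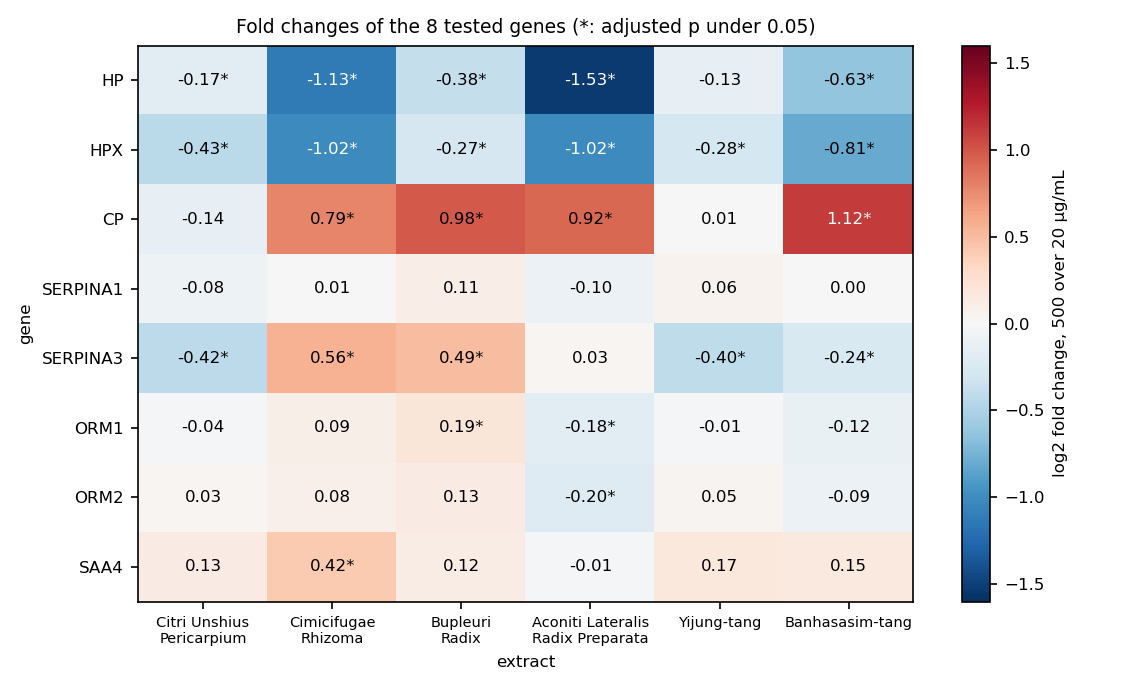
Log2 fold change of 500 over 20 µg/mL for each tested member (down) and extract (across), as colour and number, from 3 libraries per group, with a star for an edgeR adjusted p under 0.05. HP runs from -1.53 with Aconiti Lateralis Radix Preparata to -0.13 with Yijung-tang, and CP from -0.14 to 1.12.

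At the middle dose, members were called for Aconiti Lateralis Radix Preparata. HP fell at 100 µg/mL of Aconiti Lateralis Radix Preparata, to 144, 151 and 151 CPM, against 178, 183 and 176 CPM at 20 µg/mL (log2 fold change -0.27 ± 0.0441, adjusted p = 1.99e-05). HPX fell as well, to 7.73, 7.64 and 8.54 CPM at 100 µg/mL, against 10.5, 10.6 and 10.5 CPM at 20 µg/mL (log2 fold change -0.41 ± 0.0878, adjusted p = 0.00149). SAA4 measured 80.3, 80.6 and 81.6 CPM at 100 µg/mL, against 65.0, 68.5 and 66.7 CPM at 20 µg/mL, which did not overlap (log2 fold change 0.27 ± 0.072, adjusted p = 0.0145), but at 500 µg/mL it was again between 63.7 and 70.01 CPM. The SAA4 call at 100 µg/mL was lost without 20 µg/mL replicate 1 (adjusted p = 0.0752) or replicate 3 (0.0574) or 100 µg/mL replicate 3 (0.0544). CP, by contrast, stayed at 65.8 to 66.8 CPM at 100 µg/mL, so that with this extract HP and HPX were lower at a dose at which CP was at its low-dose level. The 100 and 500 µg/mL comparisons share the 20 µg/mL libraries.

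At 100 against 20 µg/mL, 3 of 8 members were called for Aconiti Lateralis Radix Preparata, where 5.49% of all genes were. In the other 5 extracts 0 members were called by edgeR, against 0.0249% of all genes for Citri Unshius Pericarpium, 1.18% for Cimicifugae Rhizoma, 0.168% for Bupleuri Radix, 1.19% for Yijung-tang and 0.0124% for Banhasasim-tang. At an unadjusted p under 0.05, 1, 3, 5, 4 and 0 members passed in these extracts, in that order, and DESeq2 called 1 for Citri Unshius Pericarpium and 0 in the others. Cimicifugae Rhizoma had 3 members called when just the libraries compared were fitted, or with a replicate block within its set. The difference between extracts at 100 against 20 µg/mL was not tested.

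Against vehicle, HP gave nearly the same picture as against 20 µg/mL. With Aconiti Lateralis Radix Preparata the means were 189 ± 5.93 CPM in vehicle, 179 ± 3.72 at 20 µg/mL, 149 ± 4.3 at 100 µg/mL and 62.2 ± 2.02 at 500 µg/mL (SD, n = 3 each). At 20 µg/mL no extract moved HP past the threshold, with log2 fold changes against vehicle of -0.08 to 0.07. HPX was already lower than in vehicle at 20 µg/mL of Aconiti Lateralis Radix Preparata (-0.36, edgeR adjusted p = 0.000652). Its log2 fold change at 500 µg/mL of that extract was thus -1.38 against vehicle and -1.02 against 20 µg/mL. In the other extracts HPX was not called at 20 µg/mL against vehicle (-0.13 to 0.16). At 500 µg/mL the log2 fold changes of HP were -1.61 for Aconiti Lateralis Radix Preparata, -1.12 for Cimicifugae Rhizoma, -0.56 for Banhasasim-tang, -0.37 for Bupleuri Radix, -0.17 for Citri Unshius Pericarpium and -0.13 for Yijung-tang. All of these passed, but that of Yijung-tang (adjusted p = 0.0227) was lost without vehicle replicate 1 (0.0994), vehicle replicate 2 (0.0531) or 500 µg/mL replicate 3 (0.0891). CP was higher than in vehicle by 1.01 with Cimicifugae Rhizoma, 1.00 with Banhasasim-tang, 0.85 with Bupleuri Radix and 0.83 with Aconiti Lateralis Radix Preparata on the log2 scale. Without vehicle replicate 2, the HP values of Aconiti Lateralis Radix Preparata and Cimicifugae Rhizoma were -1.61 and -1.12, and the CP changes were 0.95, 0.94, 0.79 and 0.77 in that order. SERPINA1 was called higher than in vehicle with Cimicifugae Rhizoma (0.15), Bupleuri Radix (0.17) and Banhasasim-tang (0.14), and without vehicle replicate 2 all 3 calls were lost (adjusted p = 0.12, 0.0754 and 0.171). The SERPINA1 call was also lost for Banhasasim-tang without vehicle replicate 3 (0.0592) or 500 µg/mL replicate 2 (0.09) or replicate 3 (0.0674), for Cimicifugae Rhizoma without 500 µg/mL replicate 1 (0.295) or replicate 2 (0.0646), and for Bupleuri Radix without 500 µg/mL replicate 3 (0.127).

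The comparisons with vehicle share the vehicle libraries, and vehicle stood in a set of its own. Many genes at large differed from vehicle even at 20 µg/mL, which is the background for the member counts, but fewer did once each library's GC trend was removed. At 20 µg/mL 910 genes were then called for Citri Unshius Pericarpium (3047 before), 1195 for Cimicifugae Rhizoma (3005), 935 for Bupleuri Radix (3474), 2722 for Aconiti Lateralis Radix Preparata (4975), 1340 for Yijung-tang (4328) and 453 for Banhasasim-tang (4524). For Citri Unshius Pericarpium 2, 2 and 3 of 8 members were called at 20, 100 and 500 µg/mL, against 18.9%, 21.9% and 22.3% of all genes. For Cimicifugae Rhizoma 1, 2 and 7 were called, against 18.7%, 29.1% and 45.6%. For Bupleuri Radix 0, 1 and 6 were called, against 21.6%, 25.8% and 35.4%. For Aconiti Lateralis Radix Preparata 3, 4 and 4 were called, against 30.9%, 37.3% and 47.3%. For Yijung-tang 0, 2 and 3 were called, against 26.9%, 32.8% and 32.4%. For Banhasasim-tang 2, 1 and 4 were called, against 28.1%, 29.4% and 34.5%. The 2 counts of 0 were also 0 by DESeq2, with 1 member each at an unadjusted p under 0.05. Without vehicle replicate 2 the counts were 0, 1 and 3 for Citri Unshius Pericarpium, 0, 1 and 6 for Cimicifugae Rhizoma, 1, 1 and 5 for Bupleuri Radix, 1, 4 and 4 for Aconiti Lateralis Radix Preparata, 0, 3 and 2 for Yijung-tang and 1, 1 and 3 for Banhasasim-tang.

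Extracts of the same set were also set against each other at equal dose. At 500 µg/mL HP was lower with Cimicifugae Rhizoma than with Citri Unshius Pericarpium (87.2 ± 1.11 and 167 ± 7.54 CPM, SD, n = 3 each; log2 -0.94), lower with Aconiti Lateralis Radix Preparata than with Bupleuri Radix (62.2 ± 2.02 and 146 ± 5.16 CPM; log2 -1.24) and lower with Banhasasim-tang than with Yijung-tang (128 ± 3.91 and 173 ± 4.0 CPM; log2 -0.43). CP was about 1 log2 unit higher with Cimicifugae Rhizoma than with Citri Unshius Pericarpium (1.04) and with Banhasasim-tang than with Yijung-tang (1.02), while Aconiti Lateralis Radix Preparata and Bupleuri Radix gave 125 ± 5.89 and 126 ± 4.5 CPM of CP (log2 -0.02, adjusted p = 0.871). SERPINA3 was higher with Cimicifugae Rhizoma than with Citri Unshius Pericarpium (log2 0.81) and lower with Aconiti Lateralis Radix Preparata than with Bupleuri Radix (log2 -0.61). HPX was lower in the first extract of each of these pairs (log2 -0.70, -1.05 and -0.30). The HPX call of the Banhasasim-tang pair was lost without its 500 µg/mL replicate 1 (adjusted p = 0.0766).

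For these pairs at 500 µg/mL, 5, 5 and 3 of 8 members were called, against 41.6%, 23.2% and 14.6% of all genes. At 20 µg/mL 0 members were called by edgeR in any of the pairs, against 0.0124%, 0.51% and 0% of all genes. At an unadjusted p under 0.05 there were 1, 1 and 3, and DESeq2 called 0 in each.

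The effects of 500 against 20 µg/mL themselves were then compared between the extracts of a pair by an interaction term in the same edgeR fit. The fall of HP was larger with Cimicifugae Rhizoma than with Citri Unshius Pericarpium by 0.96 ± 0.0637 on the log2 scale, the difference being -0.96 (adjusted p = 3.63e-18), and that of Aconiti Lateralis Radix Preparata minus Bupleuri Radix was -1.15 ± 0.064 (adjusted p = 1.42e-20). For Banhasasim-tang minus Yijung-tang the HP difference was -0.51 ± 0.0621 (adjusted p = 1.26e-08) and the CP difference 1.12 ± 0.0801 (adjusted p = 6.9e-16). In all, 5, 5 and 3 of 8 members differed in effect, against 27.9%, 9.95% and 11.8% of all genes tested.

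**Figure D5:**
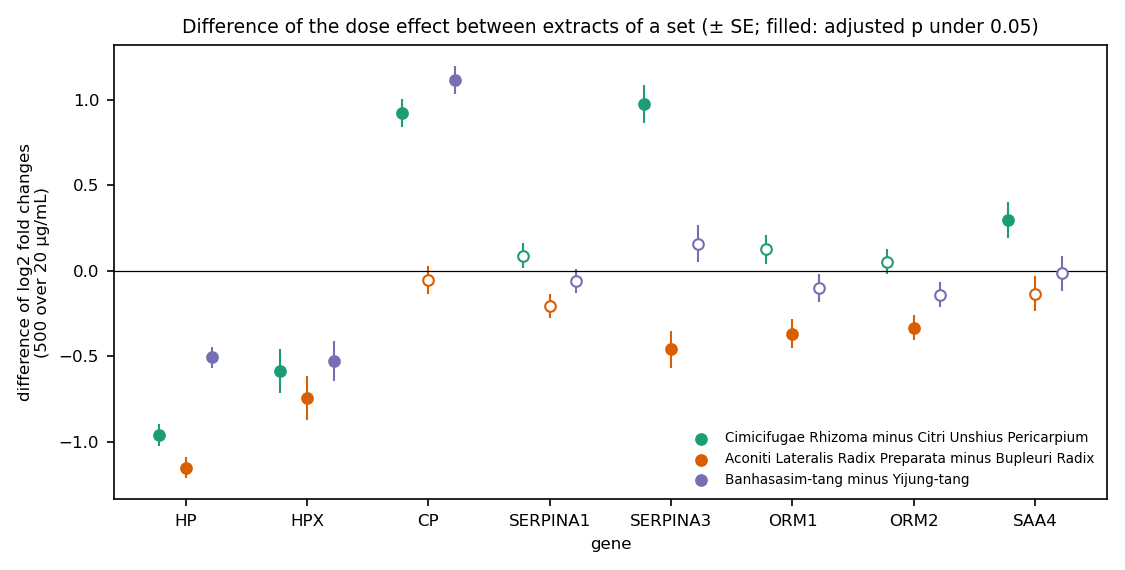
Difference between paired extracts in the log2 effect of 500 over 20 µg/mL, for each tested member, with SE bars and filled points for adjusted p under 0.05. HP differs in all 3 pairs, whereas CP differs in 2 and lies near 0 for Aconiti Lateralis Radix Preparata minus Bupleuri Radix.

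A list of 19 other positive acute phase genes, of which 16 could be tested, was counted at 500 against 20 µg/mL. There were 6 fallen and 0 risen for Citri Unshius Pericarpium, 6 and 2 for Cimicifugae Rhizoma, 1 and 2 for Bupleuri Radix, 12 and 1 for Aconiti Lateralis Radix Preparata, 4 and 0 for Yijung-tang, and 7 and 1 for Banhasasim-tang. The list's median log2 fold change lay between -0.26 and -0.06, against 0.00 for all genes, and the shares of all genes called are those given above for the same 6 comparisons, 1.58% to 39%. The 3 chains of fibrinogen, the clotting protein, were among the 12: FGA measured 316 ± 11.2 CPM at 500 µg/mL of Aconiti Lateralis Radix Preparata and 820.0 ± 19.5 CPM at 20 µg/mL (log2 fold change -1.38), FGB changed by -1.03 and FGG by -1.17. With Bupleuri Radix none of the 3 passed, and with Cimicifugae Rhizoma the falls were -0.44, -0.24 and -0.35. HAMP, the iron hormone hepcidin, fell to 2.06 ± 0.786 CPM at 500 µg/mL of Cimicifugae Rhizoma, against 59.5 ± 6.43 CPM at 20 µg/mL (log2 fold change -4.85 ± 0.2). Its log2 fold changes were -3.49, -1.74 and -1.305 for Bupleuri Radix, Aconiti Lateralis Radix Preparata and Banhasasim-tang. CRP, the classical marker of the response, had 0 counts in every group compared.

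Of 12 negative acute phase genes, 10 were tested, and their median log2 fold change lay between -0.29 and 0.11 in the 6 extracts. With Aconiti Lateralis Radix Preparata 7 fell and 1 rose, with Cimicifugae Rhizoma 5 fell and 2 rose, with Bupleuri Radix and with Banhasasim-tang 4 fell and 2 rose, with Citri Unshius Pericarpium 2 fell and 0 rose, and with Yijung-tang 0 fell and 3 rose. Of all genes, 37.1%, 39%, 18.5%, 14.9%, 1.58% and 3.73% were called in these comparisons, with the extracts in that order. SERPINA6, the plasma carrier of cortisol, fell by 0.80 on the log2 scale with Aconiti Lateralis Radix Preparata and by 0.59 with Cimicifugae Rhizoma. TTR (transthyretin) rose with Cimicifugae Rhizoma, at 88.5 ± 9.93 CPM at 500 µg/mL and 56.5 ± 3.07 CPM at 20 µg/mL (adjusted p = 2.59e-08). TF (transferrin) fell with Aconiti Lateralis Radix Preparata, at 1500 ± 9.17 CPM at 500 µg/mL and 1948 ± 25.6 CPM at 20 µg/mL (adjusted p = 3.99e-14).

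Of the signalling genes, IL6R, the interleukin-6 receptor, rose to 87.05 ± 2.16 CPM at 500 µg/mL of Cimicifugae Rhizoma, against 34.4 ± 0.972 CPM at 20 µg/mL, and to 83.4 ± 1.11 CPM with Aconiti Lateralis Radix Preparata, against 35.2 ± 1.73 CPM (log2 fold changes 1.34 and 1.24). Its log2 fold changes were 0.66 with Bupleuri Radix, 0.53 with Banhasasim-tang and 0.30 with Citri Unshius Pericarpium. STAT3 was called for Aconiti Lateralis Radix Preparata alone (-0.15, adjusted p = 4.17e-05), and SOCS3, a direct STAT3 target, was at 0.27 to 0.50 CPM and was not called. Of 16 genes for the interleukin-6 receptor, JAK and STAT3, 1, 6, 4, 7, 0 and 4 rose and 0, 4, 2, 4, 0 and 0 fell in Citri Unshius Pericarpium, Cimicifugae Rhizoma, Bupleuri Radix, Aconiti Lateralis Radix Preparata, Yijung-tang and Banhasasim-tang. Of 16 genes for interleukin-1, TNF and NF-kB, 0, 3, 4, 5, 0 and 4 rose and 1, 4, 1, 6, 1 and 0 fell in the same order. Of all genes, 1.58%, 39%, 18.5%, 37.1%, 3.73% and 14.9% were called in these extracts, in the same order. The medians of both lists lay between -0.03 and 0.08 on the log2 scale in all 6 extracts. With Bupleuri Radix and Banhasasim-tang most genes of either list were not called. NFKB2, an NF-kB subunit, rose with Cimicifugae Rhizoma (0.58) and Aconiti Lateralis Radix Preparata (0.48), and NFKBIA, the inhibitor that NF-kB induces, fell with both (-0.43 and -0.39).

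Of 14 genes for C/EBP and hepatocyte transcription factors, 9 fell with Cimicifugae Rhizoma, 7 with Bupleuri Radix, 8 with Aconiti Lateralis Radix Preparata and 4 with Banhasasim-tang, while 2, 0, 3 and 0 rose and 3, 7, 3 and 10 were not called. The list's median log2 fold change was -0.23, -0.21, -0.16 and -0.07 in these extracts, where 39%, 18.5%, 37.1% and 14.9% of all genes were called. CEBPA, a factor that keeps hepatocyte genes active, measured 41.3 ± 1.64 CPM at 500 µg/mL of Cimicifugae Rhizoma and 141 ± 5.17 CPM at 20 µg/mL (log2 fold change -1.78), and fell by 1.24, 0.95 and 0.56 on the log2 scale with Aconiti Lateralis Radix Preparata, Bupleuri Radix and Banhasasim-tang. NR1H4, the bile acid receptor, fell by 1.83 with Cimicifugae Rhizoma and by 1.76 with Aconiti Lateralis Radix Preparata, and FOXA1, a liver pioneer factor, fell by 0.70 and by 0.86. CEBPD, which is induced in the acute phase, rose with Cimicifugae Rhizoma (0.75) and Aconiti Lateralis Radix Preparata (0.46), and CEBPB rose with the second of these (0.50). With Citri Unshius Pericarpium 1 of the 14 fell, and with Yijung-tang 0 were called, against 1.58% and 3.73% of all genes.

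Markers that are not of hepatocytes, and signs of RNA quality, also moved with the high dose. The RNA-quality list summed to 1262 to 1324 CPM at 500 µg/mL of Cimicifugae Rhizoma and 965 to 1025 CPM at 20 µg/mL, and to 1054 to 1203 CPM at 500 µg/mL of Aconiti Lateralis Radix Preparata and 784 to 947 CPM at 20 µg/mL. Of its 7 tested genes, 3 and 4 rose in these extracts, where 39% and 37.1% of all genes were called in either direction. With Banhasasim-tang it summed to 889 to 914 CPM at 500 µg/mL and 829 to 854 CPM at 20 µg/mL, without overlap, while for Bupleuri Radix (872 to 1087 CPM and 875 to 956 CPM), Citri Unshius Pericarpium (939.7 to 992 CPM and 957 to 974 CPM) and Yijung-tang (792.5 to 912 CPM and 828 to 930.0 CPM) the doses overlapped. The macrophage and leukocyte markers summed to 2843 to 3048 CPM at 500 µg/mL and 1184 to 1202 CPM at 20 µg/mL of Cimicifugae Rhizoma, 2128 to 2187 and 1155 to 1210 CPM for Bupleuri Radix, 1898 to 2139 and 1041 to 1143 CPM for Aconiti Lateralis Radix Preparata, and 1734 to 1956 and 1152 to 1320 CPM for Banhasasim-tang. They summed to 1174 to 1226 and 1142 to 1176 CPM for Citri Unshius Pericarpium and 1037 to 1195 and 1194 to 1302 CPM for Yijung-tang. LYZ rose in the first 4 of these (1.31, 0.89, 0.90 and 0.59 on the log2 scale), whereas CD14 fell with Aconiti Lateralis Radix Preparata (-1.05), Cimicifugae Rhizoma (-0.80) and Bupleuri Radix (-0.68), and PTPRC was at most 0.0457 CPM in all extract libraries. The part of either list in the results was not tested.

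The genes whose mean log2 CPM over the 19 replicated groups was most like that of HP, among 10189 protein-coding genes above 5 CPM, were HPR (Pearson r 0.988), DTX4 (0.984), GLDC (0.98), ACSM2B (0.978) and PDLIM1 (0.974). For HPX they were SERPINA7 (0.967), C5 (0.964), PGC (0.962), MACROH2A2 (0.961) and C4BPA (0.957). The groups share sets and doses, and no test was made.

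Bojungikgi-tang had 1 library per dose and so no replicate check. HP measured 193, 209.7 and 193.1 CPM at 20, 100 and 500 µg/mL (exact 95% Clopper-Pearson interval at 500 µg/mL 187.9 to 198.4 CPM, for counting error only). HPX measured 13.1, 13.6 and 10.5 CPM, with intervals of 11.75 to 14.5 CPM at 20 µg/mL and 9.33 to 11.8 CPM at 500 µg/mL. CP measured 69.3, 70.02 and 79.2 CPM and SERPINA3 48.4, 45.2 and 47.4 CPM. At 500 µg/mL of this extract HP thus lay within its vehicle range (182.6 to 194.4 CPM). CP lay above its vehicle range (64.7 to 77.4 CPM) and HPX below its own (12.75 to 14.7 CPM). The counting interval of CP was 75.9 to 82.65 CPM at 500 µg/mL and 66.2 to 72.4 CPM at 20 µg/mL. HP and CP at 500 µg/mL lay far from the values of Aconiti Lateralis Radix Preparata.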

How the data were processed

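The authors deposited a table of expected counts per gene. Per the submitters' processing notes, reads were processed with FastQC 0.11.9, Trim Galore 0.6.5, STAR 2.7.3a and RSEM 1.3.3 on GRCh38; the annotation release is not given in the sources used here. Per the labels' protocols, the library kit was directional and paired-end. The table held 60 columns of the libraries and 207 columns of no sample here, which were not used. Of the nonzero values, 24.5% were not whole, and expected counts were rounded to whole numbers. GENCODE 29 named 57055 of 60675 genes, and genes without a name took 0.0398% of counts.

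Genes were filtered with filterByExpr and scaled by TMM (0.898 to 1.04) in R 4.3.3 with edgeR 4.0.16. The quasi-likelihood fit held 57 libraries of 19 groups, 3 per group, with group as its term, on 16093 genes and at a common biological coefficient of variation of 4.86%. The 39 comparisons were each adjusted by Benjamini-Hochberg over all genes tested. SE is the absolute log2 fold change divided by the square root of F. CPM used TMM-scaled totals, and values per length used transcript lengths from GENCODE 29. DESeq2 1.42.0 was an alternative. GC trends were removed as an offset in the edgeR fit. The scripts were tested on simulated data.

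The members and the gene lists were chosen with earlier results of these data known. All members are named; of each list, genes with the smallest p in the comparison described were named, with FGA, FGB, FGG, CRP, HMOX1, SOCS3, STAT3, CEBPB, CEBPD and HNF4A, whatever their result. LRP1 and CD163 were chosen after their values were seen. A gene that the rule also names is not reported here. HNF4A fell with Bupleuri Radix (-0.16) and Aconiti Lateralis Radix Preparata (-0.14), at 500 against 20 µg/mL. Alternatives were no filter, a mean of at least 1 CPM, RLE scaling, DESeq2, a replicate block, removed GC trends, near copies summed, a fit of only the libraries compared, and each library left out in turn. The glucocorticoid list, of 8 tested genes, had 0, 3, 2, 2, 0 and 1 risen and 1, 2, 2, 2, 1 and 1 fallen at 500 against 20 µg/mL, with the extracts in the order of the report's opening. Of all genes, 1.58%, 39%, 18.5%, 37.1%, 3.73% and 14.9% were called in these comparisons, in the same order. Endothelial markers summed to 2.4 to 4.38 CPM at 500 µg/mL and 3.85 to 6.72 CPM in vehicle. Fibroblast markers summed to 7.79 to 16.5 CPM at 500 µg/mL and 10.6 to 11.4 CPM in vehicle. Bojungikgi-tang entered no test.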

Additional observations from a re-analysis of the deposited data

Results flagged for a closer look

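The effect of 500 against 20 µg/mL on 13 member values differed between the extracts of a pair, by the interaction term in edgeR's quasi-likelihood test with Benjamini-Hochberg adjustment. For Cimicifugae Rhizoma minus Citri Unshius Pericarpium the log2 difference was -0.96 for HP (adjusted p = 3.63e-18), -0.59 for HPX (0.000281), 0.97 for SERPINA3 (8.73e-10), 0.30 for SAA4 (0.0248) and 0.92 for CP (1.1e-13). For Aconiti Lateralis Radix Preparata minus Bupleuri Radix it was -1.15 for HP (1.42e-20), -0.74 for HPX (1.79e-05), -0.46 for SERPINA3 (0.00257), -0.37 for ORM1 (0.0016) and -0.33 for ORM2 (0.000932). For Banhasasim-tang minus Yijung-tang it was -0.51 for HP (1.26e-08), -0.53 for HPX (0.000943) and 1.12 for CP (6.9e-16). SAA4 lost its call when any one of 6 libraries was left out (adjusted p of 0.0524 to 0.0883).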

How the results depend on the processing

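Of 5331 member values recomputed under other settings or with 1 library left out, 94.5% kept their direction and side of the threshold, 153 lost a call, 141 gained one and 0 of the called values reversed. The falls of HP at 500 against 20 µg/mL with Cimicifugae Rhizoma (-1.16 to -1.09), Bupleuri Radix (-0.41 to -0.37), Aconiti Lateralis Radix Preparata (-1.56 to -1.50) and Banhasasim-tang (-0.68 to -0.59) and the rises of CP in the same extracts kept their calls under every setting run and without any one library. Counts of members called changed by over 1.5 times mainly against vehicle and where the count was 0 to 3; the cause was not tested. Among all genes at 500 against 20 µg/mL, calls for Citri Unshius Pericarpium numbered 255, but 422 with the GC trend removed, 472 with the replicate block as well 513 with the block within a title set, 160 without 20 µg/mL replicate 2 and 163 without 500 µg/mL replicate 3. Calls for Yijung-tang numbered 601, but 158 when just the libraries of a comparison were fitted, 397 and 372 without 500 µg/mL replicates 1 and 2, and 339 without 20 µg/mL replicate 1. Calls for Banhasasim-tang numbered 2404, but 1566 when just the libraries of a comparison were fitted. Depth limits SAA1 and LBP, which were too low to test.

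Without the filter on low counts, the members called were 5 for Aconiti Lateralis Radix Preparata at 20 µg/mL against vehicle (3 as reported), 2 for Banhasasim-tang at 100 (1) and Cimicifugae Rhizoma at 20 µg/mL (1), 1 for Yijung-tang at 100 (2) and at 20 µg/mL (0), and 1 at 100 against 20 µg/mL for Bupleuri Radix, Cimicifugae Rhizoma and Citri Unshius Pericarpium (0 each). They were 1 for Yijung-tang at 500 against 20 µg/mL (2) both without the filter and when just the libraries of a comparison were fitted. Such fits gave against vehicle 5 for Citri Unshius Pericarpium at 500 µg/mL and for Aconiti Lateralis Radix Preparata at 20 µg/mL (3 each), 2 for Banhasasim-tang at 100 (1), 1 for Banhasasim-tang at 20 (2) and 2 for Cimicifugae Rhizoma at 20 µg/mL (1), and, at 100 against 20 µg/mL, 3 for Cimicifugae Rhizoma and 1 for Citri Unshius Pericarpium. A minimum mean of 1 CPM and DESeq2 each gave 2 for Banhasasim-tang at 100 and 2 for Cimicifugae Rhizoma at 20 µg/mL, RLE scaling gave 2 for the second, and DESeq2 gave 1 for Citri Unshius Pericarpium at 100 against 20 µg/mL.

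Same-numbered replicates all deviated together (every r over 0.1) in 0 of 36 comparisons, with a highest single r of 0.21. This rule would miss a weaker shared effect of the replicate number, so it does not settle whether the numbers pair libraries. Member calls gained and lost were 8 and 0 with the replicate block, 12 and 0 with the block within a title set. With the block and the GC trend removed they were 13 and 13. The replicate block gave 2 for Cimicifugae Rhizoma at 20 µg/mL against vehicle, and within a title set 1 for Bupleuri Radix and Citri Unshius Pericarpium and 3 for Cimicifugae Rhizoma at 100 against 20 µg/mL. The block with the GC trend removed gave 0 for Banhasasim-tang at 20, 2 for Bupleuri Radix at 100, 0 for Citri Unshius Pericarpium at 100 and 1 at 20 µg/mL, and 1 for Bupleuri Radix and for Citri Unshius Pericarpium at 100 against 20 µg/mL. The GC trend removed alone gave 0 for Banhasasim-tang at 20, 0 for Citri Unshius Pericarpium at 100 and 1 at 20 µg/mL against vehicle, and 1 for Bupleuri Radix at 100 against 20 µg/mL. With vehicle replicate 2 out as well, chosen after seeing the data, it gave 0 for Banhasasim-tang at 100 and 20, Bupleuri Radix at 100, and Citri Unshius Pericarpium at 100 and 20 µg/mL, and 1 for Yijung-tang at 100 µg/mL.

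With 1 library left out, counts against vehicle ran from 1 to 3 for Aconiti Lateralis Radix Preparata at 20, 0 to 1 for Banhasasim-tang at 100, 0 to 3 at 20, 1 to 2 for Bupleuri Radix at 100, 0 to 1 at 20, 1 to 2 for Cimicifugae Rhizoma at 100, 0 to 1 at 20, 0 to 2 for Citri Unshius Pericarpium at 100 and at 20, 1 to 3 for Yijung-tang at 100 and 0 to 2 at 20 µg/mL. Yijung-tang ran from 1 to 2 at 500 against 20 µg/mL, and Banhasasim-tang against Yijung-tang at 20 µg/mL from 0 to 1.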
